A study of Mus musculus with 4 samples.

Results

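The TRAV14 family is a group of near-identical V alpha gene segments of the mouse T cell receptor alpha (TCRα) locus, and its members were taken here as every TCRα clone whose best V alignment was to a TRAV14, TRAV14D or TRAV14N segment, leaving out TRAV14D-3-DV8, which can also serve the TCRδ chain. A clone is an assembled TCRα sequence with its number of sequencing reads. Of 189388 TCRα clones in 4 libraries, 23598 were TRAV14 clones, and they fell on 6 of 97 TRAV segments found. TRAV14 clones had a median of 3 reads in each library, and 26.4% to 27.4% of them had 1 read. The libraries were made by TCR SMART-seq, in which the complete variable part of TCR transcripts is amplified from total RNA by 5′-RACE, from splenic CD4 T cells sorted as TCRβ+, CD25- and negative for the αGalCer-loaded CD1d tetramer that marks iNKT cells. There were 2 libraries from wild type (WT) mice and 2 from Tet2/3 DKO mice (Tet2-/- Tet3 flx/flx CD4Cre), which the study treats as separate biological replicates. In the DKO mice Tet2 is missing in every cell, while Tet3 is deleted by a Cre driven from the CD4 promoter, so it is lost from the double-positive stage on, in CD8 as well as CD4 T cells. The methods give the DKO mice as 22 to 25 days old, of both sexes, with age-matched controls. The sort was not checked here against marker genes, since only TCR transcripts were sequenced.

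The TCRα locus lies on chromosome 14 and assembles a variable exon by joining 1 TRAV to 1 TRAJ segment at the double-positive stage in the thymus. The stretch between them is deleted, so a cell can rearrange again with a more upstream TRAV and a more downstream TRAJ. In C57BL/6 mice much of the TRAV region exists in several copies, named with no letter, D or N, and the TRAV14 segments are repeated with it. CDR1 and CDR2 of the alpha chain are encoded by TRAV alone, and CDR3 spans the TRAV-TRAJ join, where bases are trimmed and non-templated bases are added.

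The copies are listed in the order in which they lie on the mm10 (GRCm38.p6) forward strand, from the end far from TRAJ to the end near it. RefSeq places Trav14d-1 at chr14:52855665-52856166, Trav14d-2 at chr14:52948668-52949169, the excluded Trav14d-3-dv8 at chr14:53078547-53079045, Trav14n-1 at chr14:53166677-53167178, Trav14n-2 at chr14:53259678-53260179, Trav14n-3 at chr14:53370077-53370575, Trav14-1 at chr14:53554057-53554558, Trav14-2 at chr14:53640775-53641225 and Trav14-3 at chr14:53763196-53763694. All are annotated as V segments, and Trav14-3 ends 393586 bases before Traj58 while Trav14d-1 ends 1301114 bases before it. Every clone assigned to TRAV14D-1 had an equal score for TRAV14N-1, and every clone assigned to TRAV14D-2 had an equal score for TRAV14N-2, so these names each stand for a pair of loci. Such ties covered between 31.9% and 36.3% of the family's reads in a library. Each of the other 4 copies was assigned without a tie for more than 99% of its reads.

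The copies are shown as the most read V part of each, from the first base of framework 1 to the last base of framework 3, with CDR1 and CDR2 in capitals because V alone encodes these 2 loops of the receptor. They were read from the assembled clones, not from a germline reference, and run 5′ to 3′.
TRAV14D-1: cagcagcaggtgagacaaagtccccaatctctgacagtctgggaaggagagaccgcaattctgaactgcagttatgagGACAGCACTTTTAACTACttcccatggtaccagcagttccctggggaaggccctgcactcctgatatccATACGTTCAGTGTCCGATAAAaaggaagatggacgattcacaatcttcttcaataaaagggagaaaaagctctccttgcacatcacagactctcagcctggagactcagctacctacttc
TRAV14D-2: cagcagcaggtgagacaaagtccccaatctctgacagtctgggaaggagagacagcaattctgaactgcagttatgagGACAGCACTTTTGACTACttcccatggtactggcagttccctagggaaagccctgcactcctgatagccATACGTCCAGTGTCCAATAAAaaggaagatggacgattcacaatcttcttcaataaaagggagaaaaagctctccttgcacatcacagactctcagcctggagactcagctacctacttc
TRAV14N-3: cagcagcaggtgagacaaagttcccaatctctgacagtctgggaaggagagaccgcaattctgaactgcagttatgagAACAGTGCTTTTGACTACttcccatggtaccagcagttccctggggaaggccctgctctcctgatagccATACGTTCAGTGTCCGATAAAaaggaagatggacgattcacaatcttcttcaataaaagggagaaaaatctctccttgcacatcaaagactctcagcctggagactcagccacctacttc
TRAV14-1: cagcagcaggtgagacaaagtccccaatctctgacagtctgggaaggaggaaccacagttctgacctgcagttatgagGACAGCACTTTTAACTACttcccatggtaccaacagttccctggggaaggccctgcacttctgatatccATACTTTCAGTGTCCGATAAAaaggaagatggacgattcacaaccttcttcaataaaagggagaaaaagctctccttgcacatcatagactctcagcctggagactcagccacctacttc
TRAV14-2: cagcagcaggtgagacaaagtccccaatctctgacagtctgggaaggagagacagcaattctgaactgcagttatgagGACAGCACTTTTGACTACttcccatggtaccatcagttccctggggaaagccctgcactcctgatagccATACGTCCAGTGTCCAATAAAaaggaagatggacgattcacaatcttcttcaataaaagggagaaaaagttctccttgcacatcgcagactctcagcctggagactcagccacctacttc
TRAV14-3: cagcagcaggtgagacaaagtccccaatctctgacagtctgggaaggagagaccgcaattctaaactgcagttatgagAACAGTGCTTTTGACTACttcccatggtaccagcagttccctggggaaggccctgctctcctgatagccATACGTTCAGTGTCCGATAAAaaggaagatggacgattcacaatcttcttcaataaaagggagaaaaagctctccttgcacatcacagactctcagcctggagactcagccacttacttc

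All 6 are 267 bases long. The closest pair is TRAV14N-3 and TRAV14-3 with 5 differences (98.1% identity), and the most distant is TRAV14D-2 and TRAV14-1 with 20 (92.5%). The capitals encode 3 CDR1 loops, 1 in TRAV14-1 and TRAV14D-1, 1 in TRAV14-2 and TRAV14D-2, and 1 in TRAV14-3 and TRAV14N-3. They also encode 3 CDR2 loops, 1 in TRAV14-1 alone, 1 in TRAV14-2 and TRAV14D-2, and 1 in TRAV14D-1, TRAV14N-3 and TRAV14-3. TRAV14-2 and TRAV14D-2 thus carry the same pair of loops, as do TRAV14-3 and TRAV14N-3.

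TRAV14 supplied between 11.9% and 13.1% of TCRα reads, in both genotypes. Total TCRα reads were 172506 and 216457 in the WT and 195046 and 287799 in the DKO libraries. TRAV14 took 11.9% and 12.7% of them in the WT and 13.1% and 12.8% in the DKO libraries, with a 95% Wilson interval of 11.7% to 12.02% in the smallest library. By mean share it ranked behind the TRAV7 and TRAV6 families. The DKO libraries lay just above the WT libraries, at 12.9% ± 0.163 (SD, n = 2) against 12.3% ± 0.619 (SD, n = 2), a log2 ratio of 0.074 that was 0.023 without WT replicate 1 and 0.13 without WT replicate 2. With 2 libraries a group the exact two-sided permutation test cannot go below 0.333, which is the p it gave (adjusted over 6 such comparisons, 0.5). With each clone counted once the shares were 12.1% and 12.5% in the WT and 12.7% and 12.4% in the DKO libraries, and the groups overlapped. Reads carry no molecular identifiers, so a clone's reads reflect both its number of cells and its RNA per cell, which cannot be told apart.

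Usage differed several-fold between copies and was steady between libraries for most of them. TRAV14D-1, pooled with TRAV14N-1, made up 2.92% and 3.0% of TCRα reads in the WT and 3.05% and 2.79% in the DKO libraries. TRAV14N-3, a single locus, was at 2.73% and 3.13% in the WT and 2.95% and 2.78% in the DKO libraries. These 2 had the highest means, and neither was above the other in all 4 libraries. TRAV14-2 was at 2.34% and 2.8% in the WT and 3.35% and 2.43% in the DKO libraries. TRAV14-1 was at 2.09% and 1.99% in the WT and 1.92% and 3.11% in the DKO libraries, so that DKO replicate 2 stood alone above the other 3 libraries. TRAV14D-2, pooled with TRAV14N-2, was at 1.38% and 1.4% in the WT and 1.35% and 1.31% in the DKO libraries. TRAV14-3, the copy nearest to TRAJ, was the least used, at 0.397% and 0.427% in the WT and 0.449% and 0.418% in the DKO libraries, below every other copy in every library. The excluded TRAV14D-3-DV8 was at 1.2 ± 0.0845 percent (mean ± SD, n = 4).

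No TRAV14 copy passed the test between genotypes. edgeR's quasi-likelihood test over 97 TRAV segments called 0 of them (0%), with 3 at an unadjusted p under 0.05, none of them a TRAV14 copy, and DESeq2 also called 0. The largest log2 fold change among the copies, DKO over WT, was 0.30 for TRAV14-1 (edgeR SE 0.223, adjusted p = 0.975). Next came TRAV14-2 with 0.17, which turned to -0.081 without DKO replicate 1 and was 0.38 without DKO replicate 2. The other 4 lay between -0.068 and 0.073, and the median over the 6 copies was 0.026 beside -0.0092 over all segments tested. Leaving out 1 library took the median of the copies from -0.078 (without DKO replicate 1) to 0.10 (without WT replicate 2), so it had no stable sign. The TRAV14-1 value turned to -0.052 with each clone counted once and to -0.093 without DKO replicate 2. Without DKO replicate 1 it was 0.61 (edgeR adjusted p = 0.0464, 1 of 8 segments called). That fit has 1 DKO library, the spread comes from the 2 WT libraries alone, and DKO is assumed to vary like WT. Counted as clones, TRAV14-1 made up 2.25% and 2.19% in the WT and 2.11% and 2.17% in the DKO libraries, with no library apart from the rest.

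**Figure D1:**
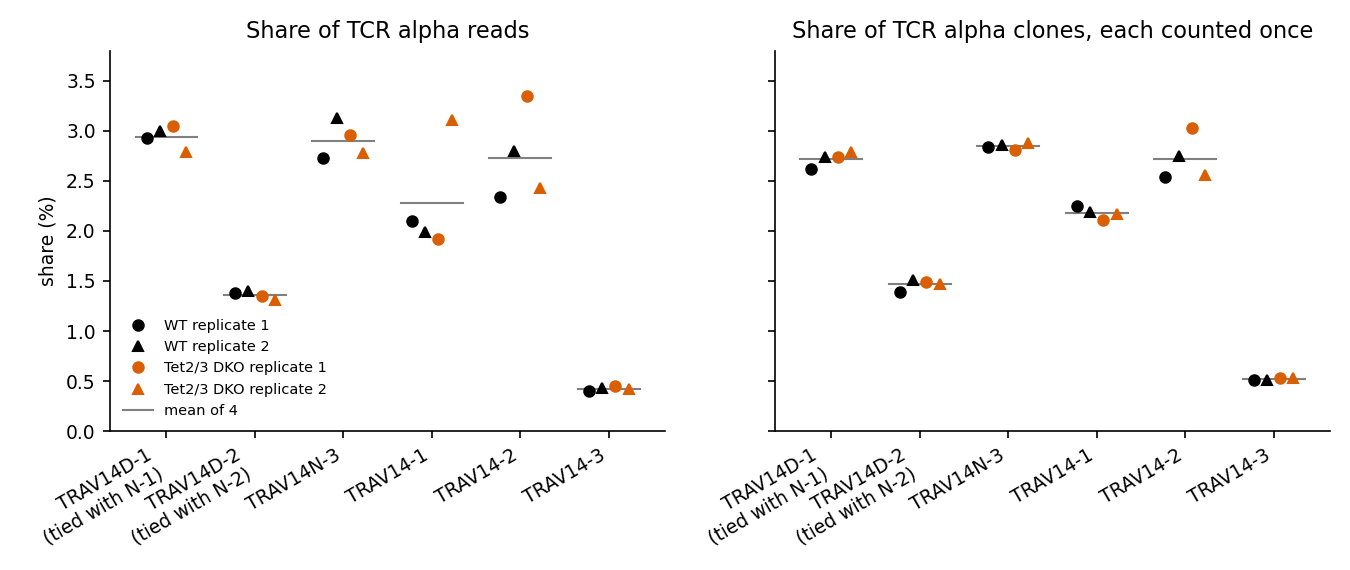
Share of each TRAV14 copy in the 4 libraries, in percent of TCRα reads (left) and of TCRα clones counted once (right), with copies in chromosome order. Points are libraries and grey lines the mean of 4. TRAV14-1 stands out in DKO replicate 2 on the left (3.11%) and not on the right (2.17%).

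Which TRAJ a clone carried went with the position of its TRAV14 copy. TRAJ segments are numbered down from the end nearest to TRAV, so a high number is a TRAJ close to TRAV, and 44 TRAJ segments appeared in the tables. Counting each clone once, TRAV14-3 had a mean TRAJ number of 46.4 and 44.1 in the WT and 45.5 and 44.99 in the DKO libraries. TRAV14-2, the next copy out, had 36.3 and 36.4 in the WT and 35.8 and 36.2 in the DKO libraries. TRAV14-1 had 33.3 and 33.1 in the WT and 33.4 and 33.5 in the DKO libraries. These 3 copies did not overlap with each other or with the D and N copies in any library. TRAV14N-3 had 26.5 and 25.8 in the WT and 25.2 and 25.6 in the DKO libraries. TRAV14D-1 with TRAV14N-1 had 27.1 and 25.3 in the WT and 26.2 and 25.02 in the DKO libraries, which was above TRAV14N-3 in 2 libraries and below it in 2. TRAV14D-2 with TRAV14N-2 had the lowest in the family, 23.1 and 22.99 in the WT and 22.8 and 22.1 in the DKO libraries. Trav14d-1 lies farther from TRAJ than Trav14d-2, and Trav14n-1 farther than Trav14n-2, but Trav14n-1 lies nearer to TRAJ than Trav14d-2. How the clones of each pair divide between its loci is not known, so the pairs cannot be ranked by distance. The excluded TRAV14D-3-DV8 was below TRAV14D-2 in every library, with 22.7 and 22.2 in the WT and 22.04 and 21.9 in the DKO libraries.

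In the family, TRAV14-3 and TRAV14D-2 had the highest and lowest mean TRAJ number. The direction of their difference was thus given by the choice of copies. TRAV14-3 exceeded TRAV14D-2 by 22.5 ± 0.97 TRAJ numbers (SD of 4 within-library differences), in 4 of 4 libraries. No p is given for this difference, since the copies were chosen by the same values that a test would use. Steps were also taken between neighbours in the order of mean TRAJ number, not on the chromosome. The sign of each mean step was thus set by that order. The steps were 9.04 ± 1.05 from TRAV14-3 to TRAV14-2, 2.83 ± 0.332 from TRAV14-2 to TRAV14-1 and 7.44 ± 0.975 from TRAV14-1 to TRAV14D-1. From TRAV14N-3 to TRAV14D-2 the step was 3.0 ± 0.507. Each of these had the same sign in 4 of 4 libraries. The step from TRAV14D-1 to TRAV14N-3 was 0.148 ± 0.807 and within its spread. Among out-of-frame clones alone the means over 4 libraries were 43.7 for TRAV14-3, 36.5 for TRAV14-2, 32.6 for TRAV14-1, 25.5 for TRAV14N-3, 25.3 for TRAV14D-1 and 21.5 for TRAV14D-2.

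**Figure D2:**
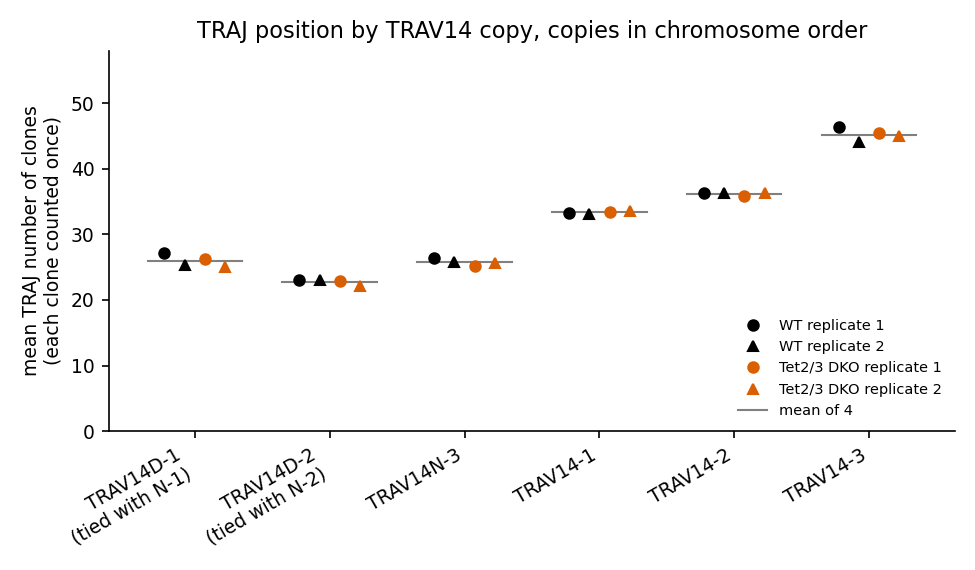
Mean TRAJ number of the clones of each TRAV14 copy, each clone counted once, in 4 libraries (points) with their mean (grey line), copies in chromosome order toward TRAJ from left to right. TRAV14-3 sits between 44.1 and 46.4 and TRAV14D-2 between 22.1 and 23.1, far apart in every library.

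By stretches of the TRAJ cluster, 50.7% ± 5.53 (SD, n = 4) of TRAV14-3 clones used TRAJ48 and up, against 17.7% of TRAV14-2, 15.4% of TRAV14-1, 9.7% of TRAV14D-1, 4.34% of TRAV14N-3 and 3.66% of TRAV14D-2 clones. At the far end, TRAJ2 to TRAJ13 took 26.5% ± 2.23 of TRAV14D-2 clones and 2.0% ± 0.685 of TRAV14-3 clones. TRAV14D-1 was an exception to a smooth order, and its clones come from a pair of loci. It combined more TRAJ48-and-up joins than TRAV14N-3 with more TRAJ2 to TRAJ13 joins (23.02% against 18.3%), in all 4 libraries for both. The excluded TRAV14D-3-DV8 had 33.2% ± 0.756 at TRAJ2 to TRAJ13 and 5.93% at TRAJ48 and up, both above TRAV14D-2. Its locus lies nearer to TRAJ than Trav14d-2 and farther than Trav14n-2.

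**Figure D3:**
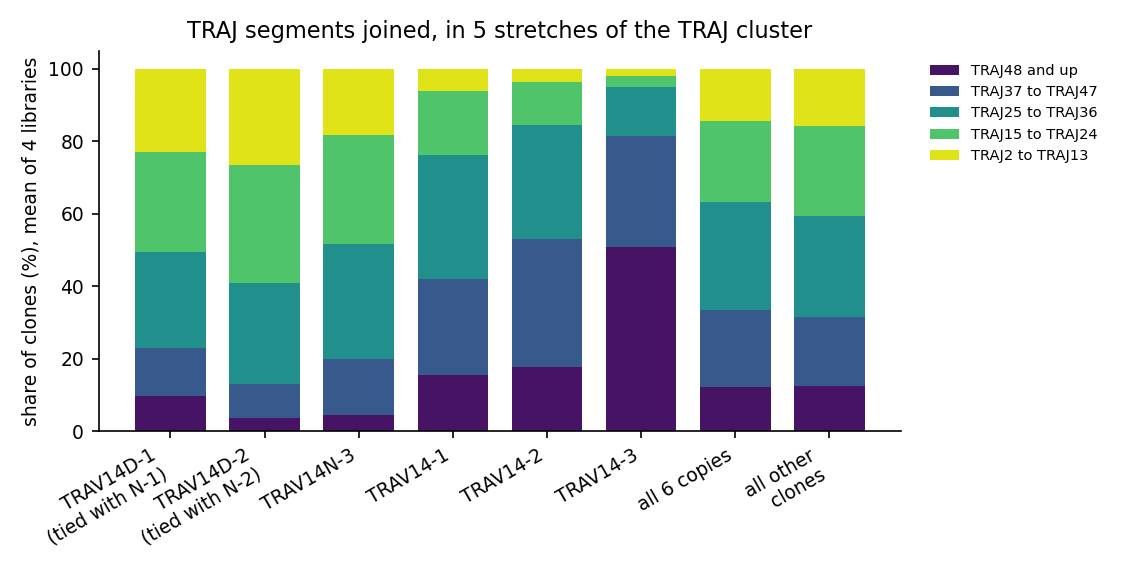
Share of clones, in percent and averaged over 4 libraries, that joined each of 5 stretches of the TRAJ cluster, for each TRAV14 copy, for the 6 copies together and for all other TCRα clones. TRAJ48 and up fills 50.7% of the TRAV14-3 bar and 3.66% of the TRAV14D-2 bar, while the family as a whole (12.2%) lies near the other clones (12.4%).

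Between genotypes the family's mean TRAJ number weighted by reads was 29.3 and 28.5 in the WT and 29.4 and 30.5 in the DKO libraries, a difference of 1.06 (exact two-sided permutation p = 0.333, adjusted 0.5). It was 0.25 without each library's largest TRAV14 clone and 0.49 without DKO replicate 2. Counted once per clone it turned to -0.36, at 30.4 and 29.7 in the WT and 29.9 and 29.5 in the DKO libraries, so no direction held. Within copies, counted once per clone, the DKO mean differed from the WT mean by -0.29 for TRAV14-2, -0.74 for TRAV14N-3 and -0.57 for TRAV14D-2. It differed by -0.57 for TRAV14D-1, 0.22 for TRAV14-1 and 0.0083 for TRAV14-3. These differences are a description, without a test, and were not set beside those of all other TRAV segments. The 5 TRAJ segments with the highest mean share of TRAV14 reads over the 4 libraries were TRAJ31 (9.18%), TRAJ37 (5.61%), TRAJ27 (5.53%), TRAJ22 (5.32%) and TRAJ23 (5.07%). Pooled over libraries TRAJ42 had more reads than TRAJ23, 5648 against 5503, most of them in DKO replicate 2. TRAJ31 took 10.3% and 8.79% in the WT and 9.61% and 7.97% in the DKO libraries. The family joined 43 of the 44 TRAJ segments, each of them in all 4 libraries. The remaining segment, TRAJ41, had 7 reads in 3 clones with any V.

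Of 821 pairs of a TRAV family and a TRAJ, edgeR's test called 0 (0%) between genotypes, and 43 of the pairs tested had TRAV14. At an unadjusted p under 0.05 there were 37 pairs, 2 of them with TRAV14, and DESeq2 called 0. With 2 libraries a group, 0 calls do not show that the pairs were alike in both genotypes. The TRAV14 pair with the lowest p was that with TRAJ42, at 0.264% and 0.252% of TCRα reads in the WT and 0.303% and 1.41% in the DKO libraries (log2 fold change 1.73, edgeR adjusted p = 0.985). TRAV14 with TRAJ24 came next, at 0.0655% and 0.0688% in the WT and 0.274% and 0.0747% in the DKO libraries. In each pair 1 DKO library was high, replicate 2 for TRAJ42 and replicate 1 for TRAJ24, and the other DKO library lay at or near the WT level. Without DKO replicate 2 the log2 fold change of the TRAJ42 pair was 0.23 (edgeR adjusted p = 0.998). Without DKO replicate 1 it was 2.45 (edgeR adjusted p = 0.000282, 1 of 12 pairs called), where the only DKO library is the high one and only the 2 WT libraries supply the spread. Counting each clone once left 0.039 for TRAJ42.

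Set against all other TCRα clones of the same library, TRAV14 used 13 TRAJ segments more and 12 less in all 4 libraries, counting clones once. The widest gap upward was TRAJ31, with 8.38% of TRAV14 clones against 6.84% of the rest, followed by TRAJ37 with 5.06% of TRAV14 clones against 4.26% of the rest. The widest downward was TRAJ18, with 1.46% of TRAV14 clones against 2.36% of the rest, then TRAJ6 with 1.32% of TRAV14 clones against 2.07% of the rest. TRAJ18 is the segment of the invariant iNKT chain, which is built with TRAV11. The sort gated out iNKT cells, but TRAV11 clones (1.41% of clones) are part of the rest. Whether they bear on the TRAJ18 gap was not tested. The mean TRAJ number was higher by 0.794 ± 0.25 in 4 of 4 libraries, 29.9 against 29.1 (exact sign-flip permutation p = 0.125, the smallest possible, adjusted over 10 measures 0.179). Weighted by reads it was higher in 3 of 4 libraries only. Among 16 other TRAV families with at least 1% of clones, the TRAJ profiles most like that of TRAV14 were those of TRAV10 (Pearson r = 0.953), TRAV5 (0.951) and TRAV6 (0.933), over 44 TRAJ segments from the same libraries.

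TRAV14 clones were in frame more often than other TCRα clones. Counting clones once, a CDR3 read in frame without a stop codon was found in 92.6% and 93.1% of TRAV14 clones in the WT and 93.01% and 92.2% in the DKO libraries. The values for the rest were 81.03% and 82.1% in the WT and 82.2% and 82.8% in the DKO libraries, all below them. The difference was 10.7 ± 0.912 percentage points, in 4 of 4 libraries (exact sign-flip permutation p = 0.125, adjusted 0.179). Clones with no CDR3 given were also rarer, at most 0.522% of TRAV14 clones and at least 2.78% of the rest, and with these left out the difference was 8.11 points. Out-of-frame joins made up 6.68% of TRAV14 clones and 14.3% of the rest (means of 4), and an in-frame stop codon 0.149% and 0.169%. Every copy was above 90% by its mean, from 90.9 ± 0.946 percent (SD, n = 4) for TRAV14N-3 to 95.1 ± 0.565 percent for TRAV14-3. TRAV14D-3-DV8, counted here with the rest, was at 93.99 ± 0.792 percent, within the range of the copies. By reads the in-frame share was 94.8% and 95.6% in the WT and 95.3% and 94.8% in the DKO libraries, and WT and DKO overlapped (exact permutation p = 0.667).

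The CDR3 of in-frame TRAV14 clones was short and narrowly spread. Its median was 13 amino acids in every library, and 81.9% to 83.3% of clones had 12 to 14. The mean was 13.2 and 13.2 in the WT and 13.2 and 13.3 in the DKO libraries, and that of other clones 13.4 and 13.4 in the WT and 13.5 and 13.5 in the DKO libraries. The difference was -0.237 ± 0.0277 amino acids, shorter in 4 of 4 libraries (exact sign-flip permutation p = 0.125). TRAV14 clones were more often 12 long (19.3% against 14.6%) and less often 15 (9.15% against 13.4%) or 16 (1.99% against 4.41%). Among copies the mean ran from 13.1 ± 0.0487 (SD, n = 4) for TRAV14N-3 to 13.4 ± 0.0862 for TRAV14-3, and TRAV14D-3-DV8, again counted with the rest, was at 13.1 ± 0.0526. Between genotypes the mean by reads was 13.1 and 13.2 in the WT and 13.2 and 13.2 in the DKO libraries, with DKO 0.0784 longer (exact permutation p = 0.333, adjusted 0.5). Without DKO replicate 2 it was 0.039 longer, and with each clone counted once 0.043.

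**Figure D4:**
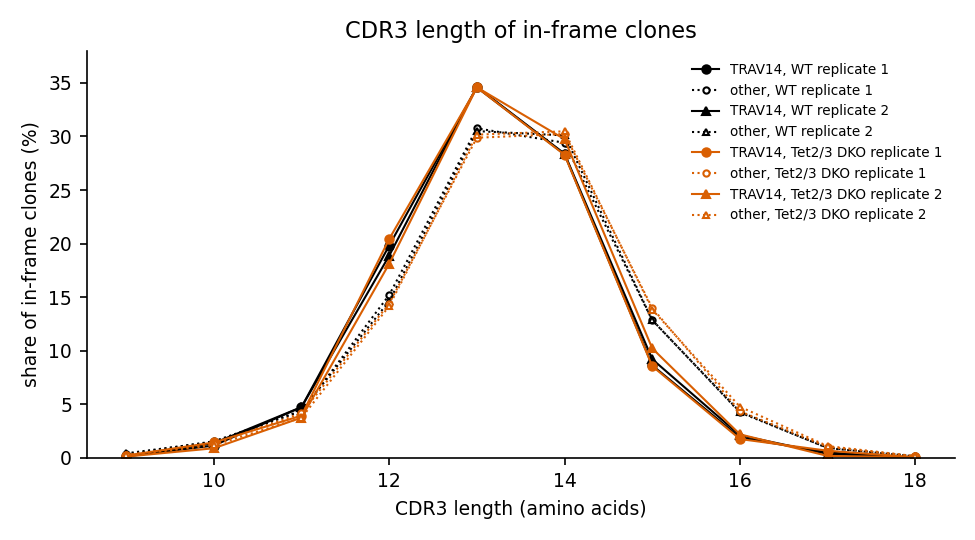
CDR3 length in amino acids of in-frame TRAV14 clones (filled points, solid lines) and of all other in-frame TCRα clones (open points, dotted lines), as percent of clones in each of 4 libraries. Both peak at 13 to 14, with more TRAV14 clones at 12 (19.3% against 14.6%) and fewer at 15.

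At the join, in-frame TRAV14 clones had lost 1.73 bases of the V end against 2.22 in other clones, and 3.24 bases of the TRAJ end against 2.97 (means of 4 libraries). V trimming was lower and TRAJ trimming higher in 4 of 4 libraries, with differences of -0.493 ± 0.0327 and 0.267 ± 0.0444. Weighted by reads, the TRAJ trimming difference was 0.12, 0.102, 0.121 and 0.65 in WT replicates 1 and 2 and DKO replicates 1 and 2, with DKO replicate 2 far above the rest. Inserted bases numbered 2.2 against 2.27, a difference of -0.0684 ± 0.0195 in 4 of 4 libraries, and weighted by reads 1.83 against 1.98, a difference of -0.153 ± 0.0616. By copy they ran from 1.98 ± 0.0814 (SD, n = 4) for TRAV14-3 to 2.32 ± 0.0738 for TRAV14-1, whose mean was above that of the rest. For the family, V trimming, TRAJ trimming and inserted bases each had an exact sign-flip permutation p of 0.125 (adjusted 0.179). TRAV14D-3-DV8 had V trimming of 1.63 ± 0.0812 and TRAJ trimming of 3.31 ± 0.0496 (SD, n = 4), nearer to the TRAV14 copies than to the rest it was counted in. The V end of TRAV14 encodes 4 residues at the start of CDR3, and 61.3% to 64.7% of in-frame TRAV14 clones kept all 4 residues.

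Both WT libraries had the same largest TRAV14 clone, each DKO library had another, and the one in DKO replicate 2 had the most reads. The CDR3 sequences of the TRAV14 clones with at least 0.1% of a library's TCRα reads are shown, with bases that neither V nor TRAJ accounts for in capitals. TRAV14D-1 with TRAJ13 from WT replicate 1 was also the largest TRAV14 clone of WT replicate 2.
DKO replicate 2, TRAV14-1 with TRAJ42: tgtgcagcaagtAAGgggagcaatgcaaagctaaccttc
DKO replicate 1, TRAV14-2 with TRAJ50: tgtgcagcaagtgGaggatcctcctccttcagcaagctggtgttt
DKO replicate 1, TRAV14D-1 with TRAJ24: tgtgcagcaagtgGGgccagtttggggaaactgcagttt
DKO replicate 2, TRAV14D-1 with TRAJ27: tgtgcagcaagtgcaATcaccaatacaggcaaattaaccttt
WT replicate 1, TRAV14D-1 with TRAJ13: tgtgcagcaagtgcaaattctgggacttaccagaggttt
WT replicate 1, TRAV14D-1 with TRAJ39: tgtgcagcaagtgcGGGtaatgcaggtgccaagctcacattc

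The TRAV14-1/TRAJ42 clone of DKO replicate 2, with 3 inserted bases, held 2896 reads, 1.01% of the library's TCRα reads (95% Wilson interval 0.97% to 1.04%). That was 7.84% of all TRAV14 reads and 32.3% of TRAV14-1 reads there, and it had rank 2 among all TCRα clones of the library. Its CDR3 nucleotide sequence with this V and TRAJ had 0 reads in the other 3 libraries, which allows up to 0.00174% of reads in the shallowest of them. Without this clone TRAV14-1 stood at 2.13% in that library, beside 2.09%, 1.99% and 1.92% in the others, and the TRAV14 share at 11.9%. The clone is 1 of 23 assembled sequences with this V, TRAJ and CDR3, which together had 3389 reads, and the rest of them were left in. TRAV14-1 with TRAJ42 then still stood at 0.249% of TCRα reads, beside 0.0557% and 0.0291% in the WT libraries and 0.0451% in DKO replicate 1.

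The next largest were in DKO replicate 1, TRAV14-2/TRAJ50 with 391 reads (0.20%) and TRAV14D-1/TRAJ24 with 333 reads (0.171%). Both had 0 reads of the same V, TRAJ and CDR3 nucleotides elsewhere. TRAV14D-1/TRAJ27 had 314 reads (0.109%) in DKO replicate 2 and also 0 elsewhere. In WT replicate 1, TRAV14D-1/TRAJ39 had 197 reads (0.114%) and 0 of the same V, TRAJ and CDR3 nucleotides in the other libraries. The largest TRAV14 clone of both WT libraries was of another kind. TRAV14D-1/TRAJ13, with no inserted base, was present in every library, with 241, 224, 153 and 278 reads of this V, TRAJ and CDR3 in WT replicates 1 and 2 and DKO replicates 1 and 2.

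Of all clones with at least 0.02% of TCRα reads, TRAV14 clones numbered 36 of 264 and 32 of 200 in WT and 24 of 167 and 43 of 298 in DKO, or 13.6% and 16% in the WT and 14.4% and 14.4% in the DKO libraries. The WT and DKO shares overlapped, and in each library the 95% Wilson interval (10.02% to 18.3% in WT replicate 1) held the family's share of all clones. They carried 10.98% and 9.16% of TRAV14 reads in the WT and 8.87% and 22.2% in the DKO libraries, and 1 of them, in DKO replicate 2, was not in frame. TRAV14D-1 gave 11 and 9 in the WT and 6 and 8 in the DKO libraries, and TRAV14-3 gave 0 and 0 in the WT and 1 and 0 in the DKO libraries. The 10 largest TRAV14 clones held 5.27% and 4.37% in the WT and 5.87% and 13.4% in the DKO libraries, a log2 ratio of 1.00 (exact permutation p = 0.333, adjusted 0.5). DKO replicate 2 was the high library, and the log2 ratio was 0.29 without it and 1.48 without DKO replicate 1. Without each library's largest TRAV14 clone it was 0.41. The Shannon-Wiener diversity, given as the exponential of the index and hence as a number of equally frequent clones, was 2851 and 3458 in the WT and 3371 and 2036 in the DKO libraries at 20469 TRAV14 reads drawn per library. The groups overlapped (log2 ratio -0.22, exact permutation p = 0.667, adjusted 0.667). This ratio turned to 0.096 without DKO replicate 2 and was -0.63 without DKO replicate 1. Without each library's largest TRAV14 clone it was 0.00098.

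Part of the TRAV14 repertoire was shared by all 4 libraries. In-frame CDR3 amino acid sequences found with TRAV14 in every library numbered 622, between 18.5% and 22.9% of the distinct TRAV14 CDR3s of a library, and they held 53.2% and 51.7% of in-frame TRAV14 reads in the WT and 49.6% and 44.6% in the DKO libraries. The same share among all other TCRα CDR3s ran from 14.04% to 17.8%, lower in each library, though the 2 sets differ in depth and in number of V segments. Shared TRAV14 clones had a mean of 1.27 inserted bases against 2.78 in the rest of the family. The 5 with the highest mean share of TCRα reads are shown by their most read nucleotide sequence, to set them beside the large clones, and since none has a base in capitals none needed an inserted base.
Shared CDR3 with TRAJ13: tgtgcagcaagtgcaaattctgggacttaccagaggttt
Shared CDR3 with TRAJ22: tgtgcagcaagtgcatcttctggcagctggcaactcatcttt
Shared CDR3 with TRAJ27: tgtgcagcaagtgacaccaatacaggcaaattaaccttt
Shared CDR3 with TRAJ7: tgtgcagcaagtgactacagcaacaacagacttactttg
Shared CDR3 with TRAJ31: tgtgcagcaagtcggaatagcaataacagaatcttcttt

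The TRAJ13 CDR3 led, at 0.281% and 0.221% of TCRα reads in the WT and 0.171% and 0.18% in the DKO libraries, and occurred with all 6 TRAV14 copies in 6 nucleotide forms. The TRAJ22 CDR3 was at 0.157% and 0.175% in the WT and 0.156% and 0.144% in the DKO libraries. Those with TRAJ27, TRAJ7 and TRAJ31 averaged 0.0897%, 0.0809% and 0.0601%, and the TRAJ31 CDR3 was encoded by 12 nucleotide sequences.

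A small part of TRAV14 transcripts lacked a stretch inside the V part. Among all TRAV14 reads, 2.83% and 2.19% in the WT and 2.09% and 2.18% in the DKO libraries came from clones in which at least 20 bases were missing against the most read sequence of the same copy, 638 clones in all. In 93.7% of these clones the missing stretch began with GT and ended with AG, the bases that bound an intron. The main form lacked bases 10 to 114 of the V part, 105 bases, which takes away nearly all of framework 1, the whole of CDR1 and the start of framework 2 and keeps the reading frame. The first 147 bases of the copy with the most such reads and of a copy with few are shown with the stretch in capitals, and then the shortened TRAV14D-1, with the bases after the gap in capitals.
TRAV14D-1: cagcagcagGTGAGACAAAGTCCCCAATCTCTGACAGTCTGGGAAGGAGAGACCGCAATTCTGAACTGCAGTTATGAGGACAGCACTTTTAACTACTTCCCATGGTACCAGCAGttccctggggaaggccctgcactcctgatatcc
TRAV14-2: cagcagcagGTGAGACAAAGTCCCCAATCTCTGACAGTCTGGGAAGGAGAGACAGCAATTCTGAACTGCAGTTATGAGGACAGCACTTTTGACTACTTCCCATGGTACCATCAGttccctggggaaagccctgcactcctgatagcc
TRAV14D-1 without the stretch: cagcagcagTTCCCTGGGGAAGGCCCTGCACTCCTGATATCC

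The share of reads with a missing stretch differed between copies. It was 5.13% and 3.92% in the WT and 4.12% and 3.64% in the DKO libraries for TRAV14D-1. TRAV14-1 had 4.62% and 3.06% in the WT and 3.59% and 3.95% in the DKO libraries. These 2 copies had the highest means, and their ranges overlapped. TRAV14-3 had 2.34% and 5.95% in the WT and 2.63% and 1.66% in the DKO libraries, on 29 clones in all. TRAV14D-2 had 2.51% and 1.75% in the WT and 2.24% and 1.97% in the DKO libraries, below TRAV14D-1 and TRAV14-1 in every library. TRAV14N-3 had 1.49% and 1.24% in the WT and 1.01% and 0.512% in the DKO libraries. TRAV14-2 was lowest, with 0.199% and 0.397% in the WT and 0.214% and 0.329% in the DKO libraries, below the other 5 copies in every library. Counted as clones, the means over 4 libraries were 5.69% for TRAV14D-1 and 0.337% for TRAV14-2. The excluded TRAV14D-3-DV8 was at 0.731% of its reads. Within each copy the WT and DKO ranges overlapped, except that both DKO values of TRAV14N-3 lay below both WT values. These shares are descriptions, without a test.

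**Figure D5:**
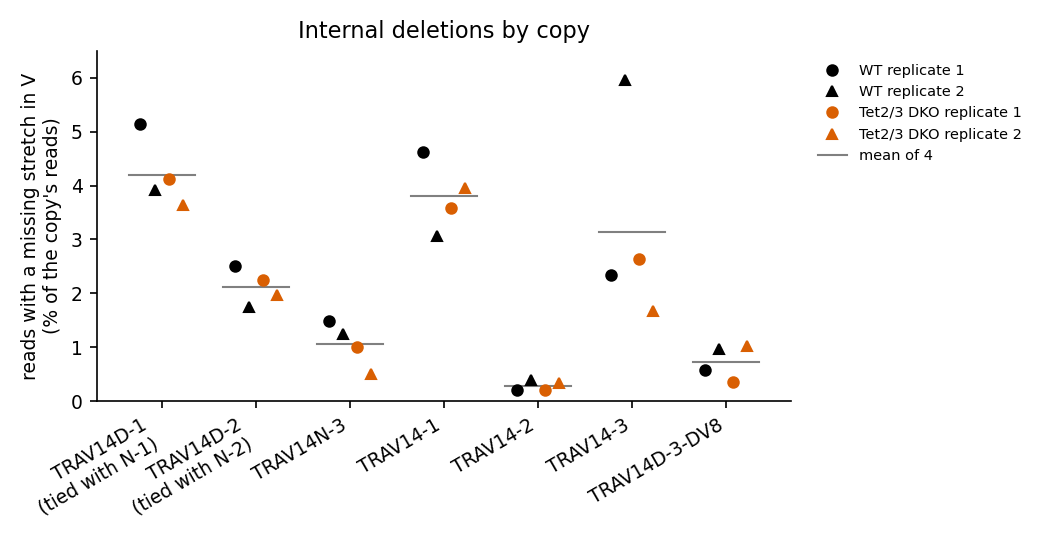
Reads with at least 20 bases missing inside the V part, as percent of the reads of each copy, in 4 libraries (points) with their mean (grey line). TRAV14D-1 and TRAV14-1 average 4.2% and 3.81%, and TRAV14-2 averages 0.285%.

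The 105-base form accounted for 755 reads of TRAV14D-1 with 35 TRAJ segments, 730 of TRAV14-1 with 33, 202 of TRAV14D-2, 162 of TRAV14N-3, 77 of TRAV14-3 and 27 of TRAV14-2. A second form ended 3 bases earlier, at base 111, and lacked 102 bases. It had 255 reads in TRAV14D-1, 35 in TRAV14N-3 and 35 in TRAV14-3, and 0 in TRAV14-1, TRAV14-2 and TRAV14D-2. Counted from the first base of framework 1, the first 3 copies read CAG at bases 109 to 111. Relative to TRAV14D-1, TRAV14-1 carries G111A there, TRAV14-2 carries G111T and TRAV14D-2 carries C109T and A110G, so none of these 3 has an AG at the end of the shorter form. TRAV14D-3-DV8 also has CAG at those bases and had 0 reads of the 102-base form and 15 of the 105-base form. Whether any of these bases bears on the shares was not tested. Other stretches were also missing. Bases 105 to 206 were missing in 28 reads of TRAV14-2, beside its 27 of the 105-base form, and in 28 reads of TRAV14D-2. A stretch of 148 bases, from 10 to 157, does not keep the reading frame. It was missing in 42 reads of TRAV14-1 and 44 of TRAV14D-3-DV8.

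Shortened and full sequences of the same rearrangement occurred together. Of 572 clones with the form ending at base 114 or at base 111 and a CDR3, 163 (28.5%) had a full-length partner in the same library. The partner had the same copy, TRAJ and CDR3 nucleotides. The TRAV14-1/TRAJ42 clone of DKO replicate 2 was the deepest case. Its CDR3 with this V and TRAJ was found in 23 assembled sequences with 3389 reads, and 155 of these reads, 4.57% (95% Wilson interval 3.92% to 5.33%), lacked the 105 bases. The CDR3 was in frame in 88.1% of all clones with a missing stretch and in 92.7% of all TRAV14 clones.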

How the data were processed

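The deposited files are tables of assembled TCRα clones, 1 per library, with a count of reads per clone and the fraction of the library's reads it makes, both from the authors' processing. The labels and methods give bcl2fastq 2.20.0, fastp 0.21.0 and MiXCR with its Takara mouse TCR preset, and the build mm10. There are no molecular identifiers, so reads from PCR copies were counted as given, and intervals cover counting error only. The deposited fraction equalled the count over the library total and was not used further. TCRβ tables were not used here.

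Members were clones whose first listed V hit, allele removed, was a TRAV14, TRAV14D or TRAV14N segment. The members, gene lists and rules were chosen with earlier results of these data known. Shares and means were compared over libraries with exact two-sided permutation tests (2 against 2, or sign flips of 4 within-library differences), adjusted by Benjamini-Hochberg. TRAV segments with at least 10 reads and pairs of TRAV family and TRAJ with at least 40 were tested with edgeR 4.0.16 (glmQLFit, glmQLFTest, library size the total TCRα reads, no replicate block), adjusted over all features at 0.05, with DESeq2 1.42.0 as an alternative. The SE is the log2 fold change over the root of its F statistic. Diversity was averaged over 20 draws. A V deletion needed 6 matching bases before it, at least 20 missing and 12 matching after, and its caller was tested on simulated sequences, as was the edgeR step on simulated counts. Named were every copy, the 5 TRAJ with the highest mean share of TRAV14 reads, TRAJ never joined, clones with at least 0.1% of reads or largest in a library, the 5 leading shared CDR3s and the 3 families most alike in TRAJ profile. TRAJ42, TRAJ24, TRAJ18 and TRAJ6 were named after their values were seen. Alternatives varied the read minimum, merging, weighting, largest clones, normalization, filter and libraries.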

Additional observations from a re-analysis of the deposited data

How the results depend on the processing

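Against all other clones, the differences in TRAJ number, CDR3 length, in-frame share and inserted bases kept their direction under read weighting, a minimum of 2 reads, merging of clones and removal of clones without a CDR3. V and TRAJ trimming and the out-of-frame share were recomputed by reads only. TRAV14-3 and TRAV14D-2 were chosen for their extreme mean TRAJ numbers. The gap between them ran from 22.2 to 24.5 under read weighting, a minimum of 2 reads, merging, and in-frame or out-of-frame clones alone. Between genotypes, the difference in the family's mean TRAJ number reversed with each clone counted once (-0.36) and among out-of-frame clones (-0.367), and the log2 ratio of diversity moved to 0.00098 without each library's largest TRAV14 clone, an alternative chosen after seeing the data. With each clone counted once, the log2 fold changes turned to 0.042 for TRAV14D-1, 0.030 for TRAV14D-2, 9.4e-05 for TRAV14N-3, -0.052 for TRAV14-1, 0.075 for the TRAJ31 pair and 0.012 for the TRAJ23 pair. Without the 10 most abundant clones of each library they were 0.040 for TRAV14D-1 and -0.0054 for TRAV14-1, and with TMM factors 0.0074 for TRAV14D-1. None of these passed the edgeR test, and the cause was not tested. Leaving out 1 library at a time gave ranges of -0.59 to 0.22 for the in-frame share (percentage points), -0.63 to 0.10 for diversity, 0.023 to 0.13 for the log2 ratio of the family's share, 0.49 to 1.63 for its mean TRAJ number, 0.039 to 0.12 for its CDR3 length, 0.29 to 1.48 for the log2 ratio of the 10 largest clones' share, -0.087 to 0.041 for TRAV14D-1, -0.13 to 0.070 for TRAV14N-3, -0.093 to 0.61 for TRAV14-1, -0.081 to 0.38 for TRAV14-2, 0.021 to 0.13 for TRAV14-3, -0.091 to -0.044 for TRAV14D-2, -0.20 to 0.10 for the TRAJ31 pair, -0.015 to 0.16 for the TRAJ37 pair, -0.043 to 0.16 for the TRAJ22 pair and 0.23 to 2.45 for the TRAJ42 pair. The number of TRAV segments called ran from 0 to 8 and of pairs from 0 to 12, the higher values both without DKO replicate 1, where 1 DKO library remains and is assumed to vary like WT, and under all other alternatives both counts were 0. Replicates 1 and 2 of the genotypes share only a number (correlation of their deviations 0.063 over TRAV segments), and with the replicate block 0 segments and 0 pairs were called. Depth limits what can be said of single small clones, since at least 26.4% of TRAV14 clones in each library had 1 read.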
